A study of Mus musculus with 4 samples.

Results

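The genes described here are the 4 Notch receptors (Notch1 to Notch4), the ligands Jag1, Jag2 and Dll1, and the target genes Hes1, Hey1 and Heyl, measured in immortalised mouse mammary epithelial cells (MECs) with and without the transcription factor Deaf-1. They were chosen by gene symbol, and every probe set that carries one of these symbols alone was used, which gave 20 of the 45037 probe sets tested and 10 of the 18193 genes that these probe sets name. A probe set is a group of short oligonucleotides on the array that together give 1 value for a transcript. Where a gene had several, the one with the highest mean over the arrays was taken as its leading probe set. All cells were Deaf-1-null, came from the mammary glands of young adult female mice, and carried human papillomavirus E6 and E7 for immortalisation. Both clones, E1 and C1, received either a retrovirus encoding Deaf-1 or the empty retrovirus, called control here, and were selected in puromycin for 48 h. RNA of each clone with each retrovirus was hybridised to 1 Affymetrix mouse array, giving 2 Deaf-1 arrays and 2 control arrays, or 2 arrays per clone. Each clone is 1 line, and the sources used here give the origin of both either as a single mouse or as mice.

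Notch receptors are cut at the cell surface and then inside the membrane after a Jagged or Delta-like ligand on a neighbouring cell binds them. The freed intracellular domain enters the nucleus, joins the DNA-binding protein Rbpj and a Mastermind coactivator, and switches on Hes and Hey genes, whose products repress transcription. In the mammary gland the pathway is known for its part in luminal cell fate, and Notch4 and Notch1 for tumours that arise when viral insertion activates them.

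The promoters of the member with the largest difference between the clones, Notch2, of Notch1, and of the nuclear partner of all 4 receptors, Rbpj, are shown because Deaf-1 is known to bind TTCG half-sites and Rbpj a core of TGGGAA. Each runs from 250 bases before to 50 bases after the annotated start (RefSeq, build GRCm38.p6). They lie at chr3:98013288-98013587 (plus strand, Notch2), chr2:26503773-26504072 (minus strand, Notch1) and chr5:53590096-53590395 (plus strand, the first of the Rbpj starts). Capitals mark TTCG or its reverse complement CGAA in the Notch promoters, and TGGGAA or its reverse complement TTCCCA in that of Rbpj.
Notch2: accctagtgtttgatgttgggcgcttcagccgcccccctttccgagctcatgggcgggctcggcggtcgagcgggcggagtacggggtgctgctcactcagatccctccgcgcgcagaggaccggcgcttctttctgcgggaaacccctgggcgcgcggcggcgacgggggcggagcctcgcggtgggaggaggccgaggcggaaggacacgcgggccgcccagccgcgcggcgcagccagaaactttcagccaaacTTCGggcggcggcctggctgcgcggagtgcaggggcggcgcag
Notch1: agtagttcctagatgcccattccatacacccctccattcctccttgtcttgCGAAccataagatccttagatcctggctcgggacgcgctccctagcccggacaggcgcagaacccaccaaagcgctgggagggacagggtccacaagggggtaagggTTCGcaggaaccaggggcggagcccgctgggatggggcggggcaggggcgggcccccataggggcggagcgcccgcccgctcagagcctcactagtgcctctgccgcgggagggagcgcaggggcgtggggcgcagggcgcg
Rbpj: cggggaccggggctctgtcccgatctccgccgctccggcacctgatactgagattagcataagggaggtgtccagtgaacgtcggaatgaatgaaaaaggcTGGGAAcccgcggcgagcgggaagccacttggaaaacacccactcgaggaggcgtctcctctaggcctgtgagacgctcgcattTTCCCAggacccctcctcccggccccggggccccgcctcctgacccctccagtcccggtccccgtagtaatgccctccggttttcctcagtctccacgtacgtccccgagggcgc

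TTCG, searched on both strands, was found 1 time in the Notch2 promoter, 2 times in those of Notch1 and Notch3, and 1 time in that of Jag1 and in each of the 2 Dll1 promoters. It was not found in those of Notch4 and Jag2. Among 32851 promoters of the same length 44.7% held it. Neither TGGGAA, held by 25.6% of all promoters, nor CACGTG, the E box bound by Hey proteins and held by 7.15%, was found in a promoter of the 7 members with an entry. TTCG was not found in the Rbpj promoter shown or in that of the other Rbpj start. The Rbpj promoter shown holds TGGGAA 2 times. These motifs do not overlap each other, and a match describes the letters only.

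Values are on a log2 scale, so a difference of 1 is a 2-fold change, and they can be compared between arrays for a probe set but not between probe sets. Medians of the arrays were 3.87 (Deaf-1 E1), 3.77 (control E1), 3.77 (Deaf-1 C1) and 3.83 (control C1). The background level used here, 3.77, is the value under which 95% of the readings of 44 olfactory receptor probe sets fell, and 49.97% to 51.8% of probe sets exceeded it on an array. Arrays of the same clone correlated at 0.992 (E1) and 0.994 (C1) across probe sets, and arrays of different clones at 0.976 to 0.983. Deaf1 (1448446_at), the check of the labels, was 6.25 (E1) and 6.73 (C1) in Deaf-1 cells, against 4.91 (E1) and 5.01 (C1) in control cells. Its log2 difference of 1.53 (SE 0.21) had an unadjusted p of 0.00123 and an adjusted p of 1 from limma. Leaving out the C1 control array gave a p of 0.011, and leaving out the E1 control array 0.013. The Deaf-1-null control cells still read above background at it, and the sources used here do not say how the probe set lies to the disrupted part of the gene. The labelled cell type was read from its markers. Cdh1, Cldn4, Cldn7 and Dsp among pan-epithelial markers and Krt18, Gata3, Kit, Csn2 and Wap among luminal markers were not above background on any array. Nor were Krt14, Krt17 and Myh11 among basal markers. Of 12 markers of fibroblasts and mesenchyme, 11 were above it on every array, with Vim at 12.79 and 12.82 in E1 and at 12.13 and 12.24 in C1. Basal markers above it on every array were Krt5 (4.45 to 4.74), Trp63 (3.87 to 4.43), Acta2 and Cnn1 (4 of 9). Luminal ones were Krt19, Esr1 and Cd24a (3 of 10). The pan-epithelial one was Epcam (1 of 6), at 6.04 and 5.81 in E1 and at 5.98 and 6.33 in C1. Krt7, the remaining pan-epithelial marker, was above it in E1 only (4.41 and 4.10), against 2.92 and 2.86 in C1.

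Of the 20 member probe sets, 10 lay above the background level on all arrays, 8 on none and 2 on some of them. The leading probe sets of Notch1, Notch2, Jag1, Jag2, Hes1 and Hey1 were above it throughout. Those of Notch4, Dll1 and Heyl were not above it on any array, and that of Notch3 was above it on 1 array, Deaf-1 E1, where its value of 3.79 lay just over the level. In these bulk samples, fewer cells that carry a transcript and less of it per cell cannot be told apart.

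**Figure D1:**
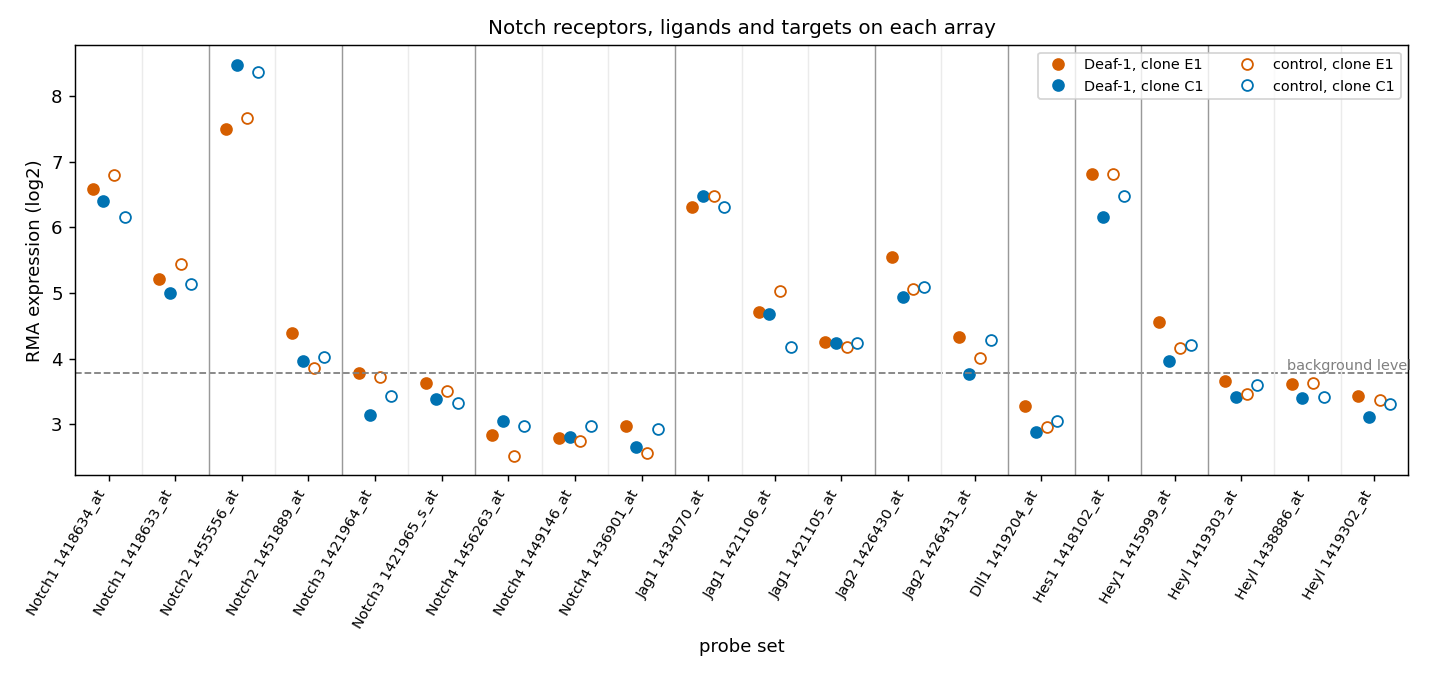
RMA expression (log2, vertical axis) of the 20 member probe sets (horizontal axis) on each array, with Deaf-1 cells as filled and control cells as open circles, clone E1 in orange, clone C1 in blue and a dashed line at the background level (3.77). Notch2 1455556_at is at 7.49 and 7.66 in E1 and at 8.47 and 8.37 in C1, and at no probe set do both Deaf-1 arrays lie apart from both control arrays.

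The first question was whether Notch genes differed when Deaf-1 was put back into Deaf-1-null cells. None of the 20 member probe sets passed an unadjusted p of 0.01 in limma, where 0.0111% of all probe sets did, and none did with clone as a block, where 0.0244% did. At an unadjusted p of 0.05 there were 0 members in either fit, against 195 of all probe sets without the block and 394 with it. The smallest unadjusted p of a member was 0.316, or 0.278 with the block, and every adjusted p was 1. The Deaf-1 and control arrays overlapped at all 20 probe sets, while they did not overlap at 18.9% of all probe sets. Over the leading probe sets the median log2 difference of Deaf-1 minus control was 0.015, against -0.0068 over all genes. For the 6 leading probe sets above background, the 95% intervals of the difference reached from -1.16 to 1.09 at their widest, and from -0.61 to 0.73 with the block, and the narrowest without the block was that of Jag1, -0.42 to 0.42. Unless the block is named, SEs and intervals given below for Deaf-1 against control are from the fit without it. Their width includes the difference between the clones.

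Among the receptors, Notch1 (1418634_at) was 6.59 (E1) and 6.40 (C1) in Deaf-1 cells, against 6.80 (E1) and 6.15 (C1) in control cells. The Deaf-1 values lay between the control values, and the log2 difference was 0.018 (SE 0.26, 95% interval -0.68 to 0.71, limma adjusted p = 1). Its other probe set, 1418633_at, read 5.22 and 4.997 in Deaf-1 cells and 5.44 and 5.13 in control cells of E1 and C1. It was 0.23 lower with Deaf-1 in E1 and 0.13 lower in C1, and its mean difference of -0.18 had an interval of -0.68 to 0.32. Notch2 (1455556_at) was 7.49 (E1) and 8.47 (C1) in Deaf-1 cells and 7.66 (E1) and 8.37 (C1) in control cells. Here each group held 1 high and 1 low array, the high ones being those of C1, and the difference between retroviruses was -0.033 (SE 0.42, interval -1.16 to 1.09). With clone as a block its SE was 0.16 and its interval -0.46 to 0.39. The other Notch2 probe set, 1451889_at, was 4.39 and 3.96 in Deaf-1 cells, against 3.85 and 4.03 in control cells of E1 and C1. Its difference of 0.23 was the largest in size among all member probe sets, with 0.53 in E1 and -0.068 in C1. Both of its Deaf-1 values were shared exactly with other probe sets of the same array. Notch3, known in mesenchymal and vascular cells, ranged from 3.15 to 3.79 in Deaf-1 cells and from 3.32 to 3.71 in control cells over its 2 probe sets. Notch4, which is mainly endothelial in the adult mouse, ranged from 2.66 to 3.04 in Deaf-1 cells and from 2.52 to 2.98 in control cells over its 3 probe sets.

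Among the ligands, Jag1 (1434070_at) was 6.31 (E1) and 6.48 (C1) in Deaf-1 cells, against 6.48 (E1) and 6.32 (C1) in control cells. The clones changed places between the retroviruses, and the log2 difference was 0.00021 (SE 0.16, 95% interval -0.42 to 0.42). Of the other Jag1 probe sets, 1421106_at read 4.71 and 4.68 in Deaf-1 cells and 5.02 and 4.18 in control cells of E1 and C1. The third, 1421105_at, stayed between 4.18 and 4.25 on all arrays. Jag2 (1426430_at) was 5.55 (E1) and 4.93 (C1) in Deaf-1 cells and 5.07 (E1) and 5.09 (C1) in control cells. Only Deaf-1 E1 stood above the other arrays, and the mean difference of 0.16 (SE 0.25) had an interval of -0.50 to 0.82. At the second Jag2 probe set, 1426431_at, the array of Deaf-1 E1 was again the highest (4.32), while that of Deaf-1 C1 was the lowest (3.76), against 4.01 (E1) and 4.29 (C1) in control cells. Dll1, a Delta-like ligand read by 1 probe set (1419204_at), had 3.28 and 2.89 in Deaf-1 cells and 2.96 and 3.04 in control cells of E1 and C1, all not above background.

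Among the target genes, Hes1 (1418102_at), the Hes gene most widely induced by Notch, was 6.81 (E1) and 6.15 (C1) in Deaf-1 cells, against 6.81 (E1) and 6.48 (C1) in control cells. The E1 arrays differed by 0.00031 and the C1 arrays by -0.33, for a mean log2 difference of -0.16 (SE 0.28, 95% interval -0.91 to 0.58). Hey1 (1415999_at), a repressor related to the Hes proteins, was 4.55 (E1) and 3.96 (C1) in Deaf-1 cells and 4.16 (E1) and 4.20 (C1) in control cells. As at Jag2, Deaf-1 E1 was the highest array and Deaf-1 C1 the lowest, with a mean difference of 0.077 (SE 0.24, interval -0.56 to 0.71). Heyl, the third repressor of this kind, ranged from 3.11 to 3.66 in Deaf-1 cells and from 3.30 to 3.62 in control cells over its 3 probe sets.

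**Figure D2:**
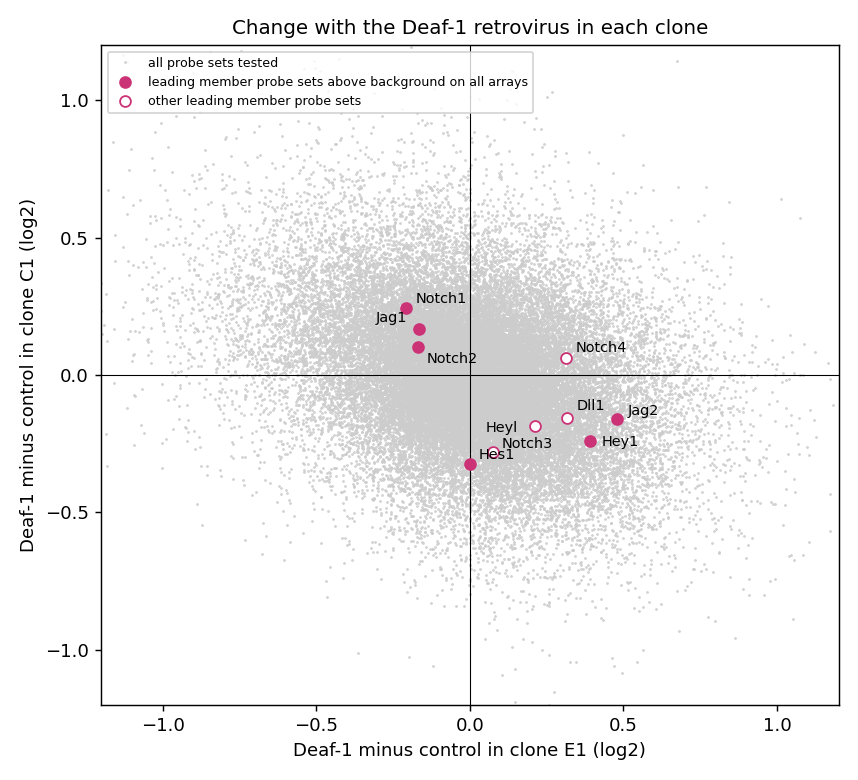
Log2 difference of Deaf-1 minus control in clone E1 (horizontal axis) and in clone C1 (vertical axis) for the leading probe set of each member (pink, filled where above background on all arrays) and for all probe sets tested (grey). The axes are limited to 1.2 on either side, and Notch4, with 0.31 and 0.063, is the 1 leading probe set of 10 outside the quadrants of opposite sign.

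The change with Deaf-1 had opposite signs in the clones at 16 of the 20 member probe sets, and at 9 of the 10 that were above background on all arrays. Among these 9, 1 of the changes was near 0 for Hes1 (0.00031 in E1) and for Jag1 1421105_at (-0.0067 in C1). Over all probe sets 58.9% had opposite signs, and over those above background on all arrays 62.6%. Notch1, Notch2 and Jag1 were lower with Deaf-1 in E1 (-0.21, -0.17 and -0.17) and higher in C1 (0.24, 0.10 and 0.17). Jag2 and Hey1 went the other way, with 0.48 and 0.39 in E1 and -0.16 and -0.24 in C1. With 1 array for each clone and retrovirus, whether the clones differ in these changes could not be tested. The median size of the change over probe sets above background on all arrays was 0.17 in E1 and 0.14 in C1.

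The second question was how the clones differed, with the retrovirus in the model. The retroviruses were the same in both clones, but each clone is 1 line, so the p-values here measure the spread between arrays and not between clones of this kind. No member had an adjusted p under 0.05 from limma, which 0.109% of all probe sets had (31 higher and 18 lower in E1). At an unadjusted p of 0.01 there was 1 member probe set, Notch2 1455556_at, lower in E1, as were 2.83% of all probe sets, and there was none higher in E1, as were 2.55%. At an unadjusted p of 0.05 there were 3, with Notch3 1421964_at and Hes1 added, against 14.4% of all probe sets. Both E1 arrays lay above both C1 arrays at 8 of the 20 member probe sets (22.8% of all probe sets) and below them at 3 (24.3%).

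Notch2 (1455556_at) was 7.49 (Deaf-1) and 7.66 (control) in clone E1, against 8.47 (Deaf-1) and 8.37 (control) in clone C1. Its mean was 7.58 ± 0.12 in E1 and 8.42 ± 0.073 in C1 (SD, n = 2 arrays each). The log2 difference of E1 minus C1 was -0.85 (SE 0.16, 95% interval -1.27 to -0.42), a 1.80-fold higher level in C1 than in E1, and it was -0.98 in Deaf-1 cells and -0.71 in control cells. The unadjusted p was 0.00498 and the adjusted p 0.147 from limma. Without the Deaf-1 array of C1, in a fit with no retrovirus term, the difference was -0.79. The dimmer Notch2 probe set 1451889_at did not share it, with 4.39 and 3.85 in E1, against 3.96 and 4.03 in C1 (Deaf-1 and control), a difference of 0.13 (interval -0.43 to 0.68).

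Notch1 and Hes1 lay on the other side. Notch1 (1418634_at) averaged 6.69 ± 0.15 in E1 and 6.27 ± 0.17 in C1 (SD, n = 2 arrays each), a log2 difference of 0.42 (SE 0.18, interval -0.071 to 0.91, limma adjusted p = 0.411). At 1418633_at it was 0.27 (interval -0.13 to 0.66), and at both probe sets both E1 arrays were above both C1 arrays. Hes1 was 6.81 on both E1 arrays, against 6.15 (Deaf-1) and 6.48 (control) in C1. Its difference of 0.50 (SE 0.16, interval 0.051 to 0.94) was a 1.41-fold higher level in E1, with an unadjusted p of 0.036 and an adjusted p of 0.302 from limma. Notch3 (1421964_at) differed by 0.46 (interval 0.011 to 0.92, adjusted p = 0.337), with both C1 arrays and the control E1 array not above background, and its other probe set by 0.21.

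For the ligands and the remaining targets the clones overlapped at the leading probe sets. Jag1 (1434070_at) averaged 6.40 ± 0.12 in both clones (SD, n = 2 arrays each), with a difference of -0.0017 (interval -0.45 to 0.44). At Jag1 1421106_at it was 0.43 (interval -0.23 to 1.10), nearly all of it from control cells (0.84), against 0.023 in Deaf-1 cells. Jag2 (1426430_at) and Hey1 differed by 0.30 and 0.27, and again the arrays with 1 retrovirus carried the difference. It was 0.62 in Deaf-1 cells and -0.023 in control cells for Jag2, and 0.59 in Deaf-1 cells and -0.044 in control cells for Hey1. Over the 10 leading probe sets the median of E1 minus C1 was 0.21, against 0.016 over all genes.

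**Figure D3:**
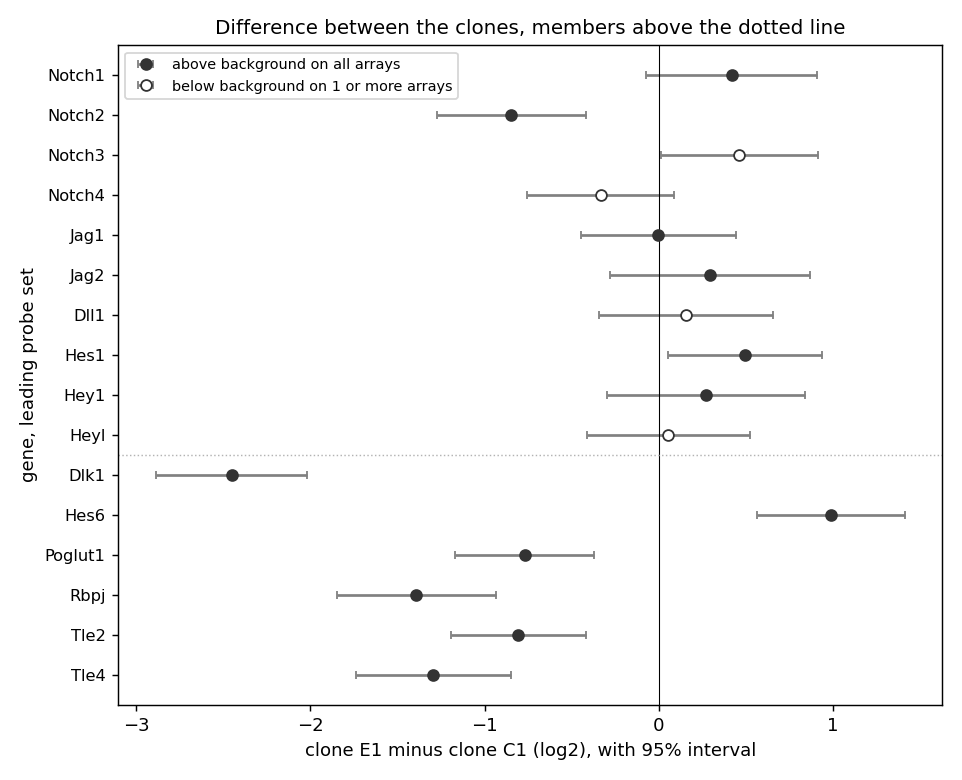
Log2 difference of clone E1 minus clone C1 (horizontal axis) with its 95% interval from limma for the leading probe sets of the 10 members and, under the dotted line, of 6 other pathway genes (vertical axis). Filled points were above background on all arrays. Notch2 is at -0.85, Hes1 at 0.50, Rbpj at -1.39 and Dlk1 at -2.45.

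Around the members, 58 of 63 other listed genes of the pathway were measured, and 50 of these had a leading probe set above background on all arrays. None passed an unadjusted p of 0.01 for Deaf-1 against control, with or without the block. Their median difference was -0.0058 (range -0.51 to 0.31), and 43 of the 58 had opposite signs in the clones. Over all genes 11069 of 18193 leading probe sets had opposite signs, and 7506 of the 11873 with a mean above background. Between the clones none had an adjusted p under 0.05, although up to 7 had one under other settings, among them Rbpj and Dlk1 in 7 of the alternatives each. At an unadjusted p of 0.01, 5 of the 58 were lower in E1 (Rbpj, Dlk1, Poglut1, Tle2 and Tle4) and 1 was higher (Hes6). Of 11873 genes with a mean above background, 5.16% were lower and 5.05% higher in E1 at that p. The median of E1 minus C1 over the 58 genes was -0.027, with both E1 arrays above both C1 arrays at 14 and below them at 20. Of the 11873 genes, 28.5% lay above and 33.1% below in this way.

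Rbpj, through which all Notch receptors act on DNA, was lower in E1 at each of its 3 probe sets. At 1454896_at it was 7.09 (Deaf-1) and 7.41 (control) in E1, against 8.66 (Deaf-1) and 8.62 (control) in C1. The log2 difference was -1.39 (SE 0.17, 95% interval -1.85 to -0.94), a 2.62-fold higher level in C1 than in E1, with an unadjusted p of 0.000918 and an adjusted p of 0.0952 from limma. At 1448957_at the difference was -0.82 (adjusted p = 0.173) and at 1418114_at -1.23 (adjusted p = 0.119). At none of the 3 did the change with Deaf-1 have the same sign in both clones, and at 1454896_at it was -0.32 in E1 and 0.041 in C1. Of the 9 measured genes of the nuclear complex, 6 had both E1 arrays below both C1 arrays and none above, with a median of -0.20, where 33.1% of the genes with a mean above background lay below and 28.5% above. They were Rbpj, the Mastermind coactivator Maml1 (-0.20), the cofactor Snw1 (-0.11), and the acetyltransferases Kat2a (-0.39), Kat2b (-0.41) and Crebbp (-0.60). Of these, Rbpj alone had an unadjusted p under 0.01, and the other 5 were named after their values were seen.

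Among the corepressors, Tle4 and Tle2, of the Groucho family that Hes and Hey proteins recruit, were lower in E1 at an unadjusted p under 0.01. The other members of the family that were listed here, Tle1 and Tle3, were on the other side. Tle1 (1422751_at) differed by 0.54 (95% interval 0.045 to 1.03, adjusted p = 0.310) and Tle3 (1419655_at) by 0.44 (interval 0.041 to 0.84, adjusted p = 0.306), each with both E1 arrays above both C1 arrays. Of the 10 corepressors measured, both E1 arrays lay above both C1 arrays at 3 and below them at 5, and the median difference was -0.16. Of the genes with a mean above background, 28.5% lay above and 33.1% below in this way. Tle4 (1450853_at) was 5.01 (Deaf-1) and 5.06 (control) in E1, against 6.47 (Deaf-1) and 6.19 (control) in C1, a difference of -1.29 (SE 0.16, adjusted p = 0.103). At Tle4 1425650_at the E1 arrays, 3.28 and 3.59, were not above background, while the C1 arrays read 4.23 and 4.73, so its level was at least 1.63-fold lower in E1. That bound sets the background level in place of the E1 values. The remaining Tle4 probe set was not above background on any array. Tle2 (1436244_a_at) was 5.70 (Deaf-1) and 5.58 (control) in E1, against 6.52 (Deaf-1) and 6.38 (control) in C1, a difference of -0.81 (SE 0.14, adjusted p = 0.141). Without the Deaf-1 array of C1, in a fit with no retrovirus term, the Tle2 difference was -0.74.

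**Figure D4:**
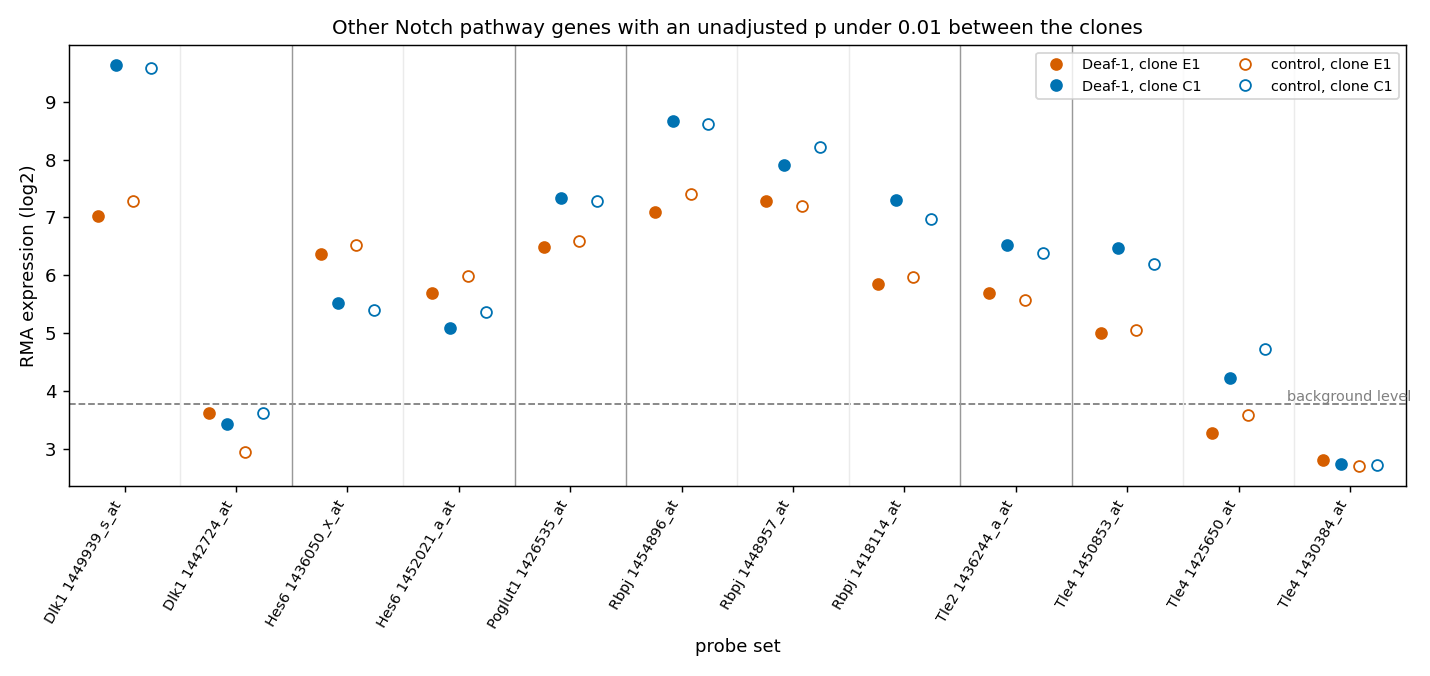
RMA expression (log2, vertical axis) of every probe set (horizontal axis) of the 6 other pathway genes with an unadjusted p under 0.01 between the clones, with Deaf-1 cells as filled and control cells as open circles, clone E1 in orange, clone C1 in blue and a dashed line at the background level (3.77). Dlk1 1449939_s_at is at 7.02 and 7.28 in E1 and at 9.63 and 9.59 in C1, and the 3 probe sets of Rbpj all lie lower in E1.

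Dlk1, a ligand-like protein without the domain by which Delta ligands bind the receptor, and an inhibitor of fat cell formation, had the largest difference in size among these 6 genes. At 1449939_s_at it was 7.02 (Deaf-1) and 7.28 (control) in E1, against 9.63 (Deaf-1) and 9.59 (control) in C1. The log2 difference was -2.45 (SE 0.16, 95% interval -2.89 to -2.02), a 5.48-fold higher level in C1 than in E1, with an unadjusted p of 7.47e-05 and an adjusted p of 0.0529 from limma. The other Dlk1 probe set was not above background. Poglut1 (1426535_at), which adds glucose to the receptor in the secretory pathway, was 6.49 (Deaf-1) and 6.59 (control) in E1, against 7.34 (Deaf-1) and 7.28 (control) in C1. Its difference of -0.77 (SE 0.15) had an adjusted p of 0.151. Without the Deaf-1 array of C1, in a fit with no retrovirus term, the difference was -0.74. Hes6, a family member known in the mouse to counter Hes1, was higher in E1. At 1436050_x_at it was 6.37 (Deaf-1) and 6.53 (control) in E1, against 5.52 (Deaf-1) and 5.41 (control) in C1, a difference of 0.99 (SE 0.16, adjusted p = 0.131), and at 1452021_a_at the difference was 0.61 (adjusted p = 0.192). Names ending in _x_at or _s_at mark probe sets that may also read other transcripts.

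Markers of other cell types also differed between the clones. The summed log2 level of the 3 measured adipocyte markers was 15.7 and 15.3 in E1, against 8.67 and 7.29 in C1 (Deaf-1 and control). Nearly all of this came from Fabp4, a lipid carrier, at 10.56 and 10.59 in E1, against 3.77 and 2.57 in C1, while the defining marker Adipoq was not above background on any array. The summed level of the 12 fibroblast and mesenchymal markers was 125.3 and 125.7 in E1, against 127.2 and 126.2 in C1. That of the 6 pan-epithelial markers, 4 of them not above background on any array, was 21.8 and 20.6 in E1, against 19.4 and 19.5 in C1. For the 9 basal and myoepithelial markers it was 44.4 and 42.6 in E1, against 45.5 and 45.0 in C1. For the 10 luminal markers measured it was 39.7 and 38.3 in E1, against 39.6 and 40.2 in C1. Of the basal and luminal markers above background on every array, Acta2, Cnn1, Esr1 and Cd24a had both E1 arrays below both C1 arrays. Krt5, Trp63 and Krt19 overlapped. Among the fibroblast markers the largest single difference was that of Lum, at 3.57 and 4.26 in E1, against 6.94 and 6.52 in C1, and among the pan-epithelial ones that of Krt7. The fibroblast markers had no common direction. Dcn, Lum, Thy1, Fn1 and Twist1 had both E1 arrays below both C1 arrays. Vim, Col1a1, Col1a2, Col3a1, Pdgfrb and Zeb1 had both above, with Pdgfrb at 9.12 and 9.25 in E1, against 8.42 and 8.29 in C1. Pdgfra overlapped. Some of these shifts were small. Col1a2 was at 13.14 and 12.97 in E1, against 12.92 and 12.88 in C1. Twist1 was at 7.71 and 7.72 in E1, against 7.87 and 7.97 in C1. Of the genes with a mean above background, 33.1% had both E1 arrays below both C1 arrays and 28.5% had both above. Such a separation was therefore common. Of 6 endothelial markers, Kdr and Tek were above background on every array and Pecam1, Cdh5, Tie1 and Emcn on none. Of 5 immune markers measured, Csf1r (5.81 to 6.30) and Cd3e (4.32 to 4.71) were above it on every array and Ptprc and Lyz2 on none. The part of these markers in the differences of Notch2, Rbpj and Dlk1 between the clones was not tested.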

How the data were processed

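Clones E1 and C1, transduced with Deaf-1 or with the empty vector, gave RNA for 4 Affymetrix mouse arrays, 1 per clone and vector. The log2 values deposited by the authors were made with RMA, which corrects background, brings arrays to a common distribution and gives 1 value per probe set, as the processing notes of the submitters state. They name RMA and limma, whose versions are not given in the sources used here. Values ran from 1.75 to 13.63. Since RMA equalises the arrays, a shift of all transcripts together would not be seen. For arrays, their number limits the precision.

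Of 45101 probe sets, 64 AFFX control probe sets were left out. Annotation gave 34945 probe sets 1 symbol, 932 several and 9160 none, and 34741 matched by gene identifier, with 0 symbols changed. Groups were compared with limma 3.58.1 in R 4.3.3 (lmFit and eBayes, no trend, two-sided). Adjusted p-values are those of Benjamini and Hochberg across 45037 probe sets. For Deaf-1 against control without the block, p-values measure the spread between arrays of different clones. The other p-values measure the spread between arrays. Clones were the replicates for Deaf-1 against control, and the comparison of clones had retrovirus as a term. That term was absent from an alternative with all arrays and from each comparison of clones with 1 array left out. Arrays of the same clone pair the groups, since both come from the same cell line, and their deviations from the group means correlated at 0.54, so a fit with a clone block was also made.

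All members were named, and of the other pathway genes Rbpj and those whose leading probe set had an unadjusted p under 0.01. Tle1, Tle3, Maml1, Snw1, Kat2a, Kat2b and Crebbp were named besides, without meeting that rule. The members and gene lists were chosen with earlier results of these data known. The alternatives tried were that block, leaving out 1 array at a time, keeping only probe sets with a mean above background or of at least 6, normalizing again by quantiles, array medians or cyclic loess, changing the prior (trend, robust), and dropping names ending in _x_at or _s_at. They were run on Deaf1 and the other pathway genes as a choice made after seeing the data. Promoters were found for 7 of the 10 members.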

Additional observations from a re-analysis of the deposited data

Results flagged for a closer look

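For 16 member probe sets the change with Deaf-1 was of one sign in clone E1 and of the other in clone C1. Each is given as the change in E1 minus the change in C1 (log2). The differences were not tested, since there was 1 array for each clone and retrovirus, and 58.9% of all probe sets had opposite signs. Among receptors the values were -0.45 for Notch1 1418634_at, -0.27 for Notch2 1455556_at and 0.60 for Notch2 1451889_at. They were 0.35 for Notch3 1421964_at, not above background on 3 of the arrays, and 0.22 and 0.67 for Notch4 1449146_at and 1436901_at, not above background on any. Among ligands they were -0.33, -0.82 and 0.072 for Jag1 1434070_at, 1421106_at and 1421105_at, 0.64 and 0.83 for Jag2 1426430_at and 1426431_at, and 0.47 for Dll1, not above background. Among targets they were 0.33 for Hes1, whose change in E1 was 0.00031, 0.63 for Hey1, and 0.40 and 0.26 for Heyl 1419303_at and 1419302_at, not above background.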

How the results depend on the processing

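Limits come first. With 4 arrays, 2 lines and 1 array for each clone and retrovirus, intervals were wide, and members at background could not show a fall. Fits of Deaf-1 against control with 1 array left out compare unequal mixes of the clones, so their values carry differences between clones. Under the filter at background there was no value for Notch3, Notch4, Dll1 and Heyl, and at a mean of 6 none for Jag2 and Hey1 either.

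For Deaf-1 against control, the 5 probe sets with an unadjusted p under 0.01 became 11 with clone as a block, 2 with a mean above background, 1 with a mean of at least 6, 25 with an intensity trend in the prior, and 2 to 47 with 1 array left out (47 without Deaf-1 C1, 15 without Deaf-1 E1, 3 without control C1 and 2 without control E1). No member passed under any of these, and the block changed no other call. Differences near 0 changed sign. With median centring they were -0.0033 for Notch1, -0.021 for Jag1 and -0.0090 for Heyl. With cyclic loess they were 0.0033 for Notch2 and -0.011 for Heyl, and with quantile normalization -0.012 for Heyl. With 1 array left out they ran from -0.30 to 0.34 for Notch1, -0.52 to 0.46 for Notch2, -0.42 to 0.22 for Notch3, -0.041 to 0.42 for Notch4, -0.084 to 0.084 for Jag1, -0.15 to 0.47 for Jag2, -0.11 to 0.28 for Dll1, -0.49 to 0.17 for Hes1, -0.22 to 0.37 for Hey1 and -0.11 to 0.14 for Heyl.

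For E1 against C1, the 49 probe sets with an adjusted p under 0.05 became 2306 with no retrovirus term, 412 with a mean above background, 2340 with a mean of at least 6, 1286 with quantile normalization, 1591 with median centring, 936 with cyclic loess, 1696 with an intensity trend, and 0 with any 1 array left out. Of the members, 1 (Notch2) then passed with no retrovirus term, with a mean of at least 6 and with the intensity trend. Of the other pathway genes, 6 passed with no retrovirus term (Rbpj, Dlk1, Poglut1, Tle2, Tle4 and Hes6), 2 with a mean above background (Rbpj and Dlk1), 7 with a mean of at least 6, 4 with quantile normalization, 5 with median centring, 4 with cyclic loess, 3 with the intensity trend, and 0 with a robust prior, without _x_at and _s_at names or with any 1 array left out. The 2425 probe sets with an unadjusted p under 0.01 became 4346 with no retrovirus term and 1514 (without Deaf-1 C1) to 2980 with 1 array left out, and the 1 member among them 0 (without Deaf-1 C1) to 1. The cause was not tested. Each fit of E1 against C1 with 1 array left out also had no retrovirus term. Its like among the fits of all arrays is therefore the one with no retrovirus term, not the main fit. Notch2 stayed between -0.93 and -0.76 with 1 array left out. Jag1 was 0.051 with quantile normalization, 0.060 with cyclic loess and -0.085 to 0.081 with 1 array left out, Dll1 -0.0024 to 0.31 and Heyl -0.050 to 0.16. Over all alternatives, 115 values of single genes for Deaf-1 against control and 184 for E1 against C1 kept their direction and their side of the threshold, 22 and 7 changed sign, and 2 (Deaf1) and 3 (Notch2, Poglut1 and Tle2) lost an unadjusted p under 0.01.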

Other observations

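Some member values were shared exactly with other probe sets of the same array. On Deaf-1 C1, Notch2 1451889_at and Hey1 both read 3.96, a value held by 30 probe sets there. On Deaf-1 E1, Notch2 1451889_at read 4.39, a value held by 32 probe sets. On the control E1 array, Notch4 1456263_at read 2.52 a value held by 64 probe sets. Between 8.09% and 8.55% of the probe sets of an array shared their value with at least 1 other.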
